A study of Mus musculus with 2 samples.

Results

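The genes described are 8 members of the EGF receptor system: the ligand genes Areg (amphiregulin, ENSMUSG00000029378), Ereg (epiregulin, ENSMUSG00000029377), Hbegf (heparin-binding EGF-like growth factor, ENSMUSG00000024486), Tgfa (transforming growth factor alpha, ENSMUSG00000029999) and Btc (betacellulin, ENSMUSG00000082361), and the receptor genes Egfr (ENSMUSG00000020122), Erbb2 (ENSMUSG00000062312) and Erbb3 (ENSMUSG00000018166). They were chosen by name and are 8 of the 55415 genes in the deposited gene tables. Each was counted in single cells of 2 mouse liver libraries of biliary epithelial cells, the cells that line the bile ducts, 1 labelled Sox9cKO and 1 labelled Sox9con. Sox9 is a transcription factor of these cells, the series names the first library as deficient in it and the other as its control, and the labels give no Cre driver, no age and no number of animals for either genotype. The comparison asks how the 2 genotypes differ in the transcripts that biliary cells make. The libraries are called cKO-labelled and control-labelled here because Sox9 itself did not settle the label: it stood at 122 CPM (a gene's UMIs, or counted transcripts, as the field's usual counts-per-million value; 95% interval 116 to 128) and 146 CPM (139 to 152), and its levels in the barcoding wells of the libraries overlapped. Without the control-labelled well D9 the control-labelled level was 110.2 CPM (103 to 118), so the direction turned.

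ERBB ligands are made as membrane-anchored precursors that metalloproteases cut free, and they act on the cell that made them or on near neighbours. All 5 of these ligands bind EGFR, and HBEGF, betacellulin and epiregulin also bind ERBB4. ERBB2 has no known ligand of its own and works as a partner of the other receptors, whereas ERBB3 has little kinase activity and is known as a receptor for neuregulins. In the liver the pathway is known for its part in the growth of hepatocytes and bile duct cells after injury.

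After a filter on cells, 2705 cKO-labelled and 3503 control-labelled cells were kept. Of these 2598 (96.0%) and 3371 (96.2%) formed the biliary fraction, with 14328690 and 12185504 UMIs and a median of 5124.5 and 3226 UMIs per cell, and 82 and 114 were endothelial-like. The biliary fraction is what was left after the endothelial-like cluster and 2 small unnamed clusters were taken out. All 12 biliary markers were detected in each of its clusters, but none was among the 10 leading genes of any, and the mesothelial marker Msln led the cluster that also held Car4 and Tff2. All 12 were also detected in the unnamed cluster led by Gnat3, and the other unnamed cluster had 7 smooth muscle or pericyte markers. Over all kept cells, with no use of these names, the log2 ratio of the cKO-labelled over the control-labelled library was 1.07 for Egfr, -0.73 for Btc and -0.27 for Hbegf, close to the values given below. There is 1 library per genotype, so no difference has a replicate check and no test of the genotypes is possible. The 5 cKO-labelled and 4 control-labelled first-round barcoding wells do not overlap, so wells and libraries cannot be told apart, while all 8 sublibraries hold cells of both and no cell barcode is shared. Sublibraries, like wells, are parts of the same libraries, so agreement among them is no replicate check. Among the control-labelled wells D9 stood apart, with Sox9 at 220.3 CPM against 74.3 to 154 in the other 3, and values without it are given where it moves a result. D9 was also the deepest of them, with a median of 4346 UMIs per biliary cell against 2393 to 3334. Leaving it out thus removes the control-labelled well nearest in depth to the cKO-labelled median, and the part of depth in those values was not tested. All intervals are exact 95% intervals that cover counting error only.

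The promoters of 3 members on which the results turn are shown here: Areg and Btc, which shared their 2 highest clusters in both libraries, and Egfr, which was furthest apart between the libraries among the 7 members with at least 200 UMIs. The RefSeq promoter table (GRCm38.p6, 250 bases before to 50 after the gene start) held 5 of the 8 members. Capitals mark the motifs searched on both strands: the cyclic AMP response element TGACGTCA, the GC box GGGCGG, the TATA box TATAAA and the AP-1 site TGANTCA, none of which overlaps another here.
Areg promoter, chr5:91139349-91139648, plus strand: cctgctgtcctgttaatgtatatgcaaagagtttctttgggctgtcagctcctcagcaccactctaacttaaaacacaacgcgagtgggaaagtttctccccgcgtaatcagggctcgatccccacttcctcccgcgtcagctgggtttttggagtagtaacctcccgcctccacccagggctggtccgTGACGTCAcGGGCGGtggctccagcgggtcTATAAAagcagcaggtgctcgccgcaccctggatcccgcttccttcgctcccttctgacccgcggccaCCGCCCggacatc
Btc promoter, chr5:91402945-91403244, minus strand: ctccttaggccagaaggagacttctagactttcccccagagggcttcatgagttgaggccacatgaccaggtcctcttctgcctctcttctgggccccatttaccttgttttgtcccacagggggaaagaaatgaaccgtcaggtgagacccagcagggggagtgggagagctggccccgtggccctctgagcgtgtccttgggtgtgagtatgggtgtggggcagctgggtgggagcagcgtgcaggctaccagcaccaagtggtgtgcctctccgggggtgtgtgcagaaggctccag
Egfr promoter, chr11:16751953-16752252, plus strand: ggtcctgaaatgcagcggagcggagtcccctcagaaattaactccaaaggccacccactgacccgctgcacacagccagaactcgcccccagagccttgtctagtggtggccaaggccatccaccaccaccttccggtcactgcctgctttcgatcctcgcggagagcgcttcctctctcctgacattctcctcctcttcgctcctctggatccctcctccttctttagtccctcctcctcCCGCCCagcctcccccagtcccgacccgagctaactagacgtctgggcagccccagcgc
The Areg window held TGACGTCA 61 bases before the gene start, which 1.79% of all 32851 promoters in the table hold. It also held TATAAA 31 bases before the start (13.6% of promoters hold this motif) and 2 GC boxes (35.7% hold at least 1). The Egfr window held 1 GC box and no TATAAA, and the Btc window held none of the 4 motifs. The AP-1 letters were in none of the 3 windows and in 7.81% of all promoters. A match describes the letters in the window and is not a measured site.

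Hbegf was the most abundant member per length of transcript in both libraries. Per kilobase of annotated exon it stood at 320.2 CPM in the cKO-labelled library (277.6 to 402 over the 5 wells) and at 387 CPM in the control-labelled library (281 to 456 over the 4 wells). Egfr followed among the members at 84.2 CPM per kilobase (80.4 to 93.3) and 40.1 CPM per kilobase (36.9 to 42.0). The well ranges of Hbegf, Egfr and the next member did not overlap in either library. In the cKO-labelled library Tgfa (20.4 CPM per kilobase), Btc (18.7) and Areg (17.0) came next and could not be told apart by their well ranges. In the control-labelled library Btc stood at 31.4 CPM per kilobase (28.4 to 36.4), and its range overlapped that of Areg (19.4, with 6.74 in D9 and up to 29.8) but not that of Tgfa (18.6, 14.2 to 24.4). Erbb3 (8.74 and 10.1) and Erbb2 (4.37 and 4.35) were the lowest apart from Ereg. Erbb4, the receptor that is not a member, reached 82.6 and 108 CPM per kilobase. Exon lengths are those of another annotation release matched by gene identifier, and whether reads in introns were counted is not given in the sources used here. Per kilobase of the whole gene, introns included, Hbegf again came first (142 and 172 CPM per kilobase). Egfr was next in the cKO-labelled library (5.75), but at 2.74 in the control-labelled library it was below Btc (3.10) and Erbb3 (2.75). In the cKO-labelled library Erbb3 (2.37) was above Areg (2.34), Btc (1.85) and Tgfa (1.65) by this measure. Erbb4 was at 0.949 and 1.24, below Egfr and Erbb3 in both libraries. The places of Egfr, Erbb3 and Erbb4 therefore depend on which length is used.

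Hbegf, a ligand with high affinity for heparan sulfate that is also an early response gene, was found in most biliary cells. Its level was 1942, 1354, 1858, 1342 and 1428 CPM in the cKO-labelled wells A11, A12, B1, B2 and B3. In the control-labelled wells D9, D10, D11 and D12 it was 1360, 2203, 2130 and 2012 CPM. D9 was as low as the lowest cKO-labelled wells and the other 3 control-labelled wells were above all of them, so the groups overlapped through D9 alone. Over the whole fraction Hbegf had 22181 UMIs (1548 CPM) in the cKO-labelled and 22818 UMIs (1873 CPM) in the control-labelled library, a log2 ratio of -0.27 (-0.30 to -0.25), or -0.45 without D9. It was lower in the cKO-labelled library in 8 of 8 sublibraries. At an equal depth of 2000 UMIs per cell the share of cells with a Hbegf UMI was 83.0% and 84.4%, against 92.7% and 91.0% at full depth. Cells below their library's median depth had a higher level of Hbegf in CPM than deeper ones, 1904 against 1383 CPM in the cKO-labelled and 2177 against 1734 CPM in the control-labelled library. Among cells of 2000 to 5000 UMIs, an alternative added after the data were seen, the log2 ratio was -0.08, and the part of depth in the difference was not tested further.

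Within the biliary fraction Hbegf was widespread. In the cKO-labelled library it was highest in the Msln cluster (2115 CPM) and lowest in the cluster led by Ltf, Lypd6 and Anxa10 (719 CPM, 654 to 788). In the control-labelled library the clusters lay closer together, from 1479 CPM in the cluster led by Dnah12 to 2305 CPM in the Msln cluster. The Ltf cluster was the place of the largest gap between the libraries, at 719 and 1558 CPM with a log2 ratio of -1.12 (-1.27 to -0.96), and the wells, at 569 to 950 and 1131 to 1987 CPM, did not overlap between the groups. In the Msln cluster and in the cluster led by Muc6 and Bcl11a the log2 ratios were -0.12 (-0.18 to -0.07) and -0.10 (-0.17 to -0.02), and the well values overlapped in both.

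**Figure D1:**
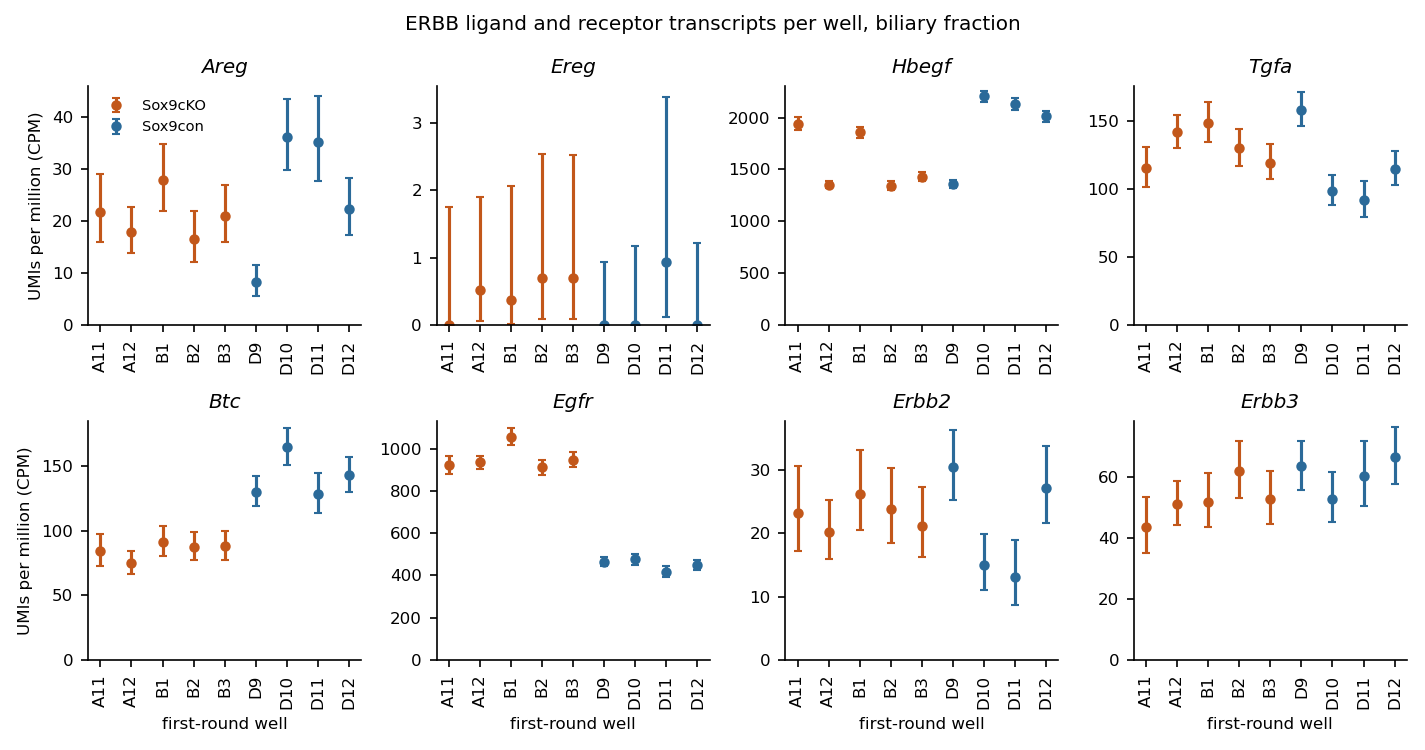
Level of each member in CPM (linear axes from 0) in the biliary fraction of each first-round well, with exact 95% Poisson intervals as bars. The 5 cKO-labelled wells lie above the 4 control-labelled wells for Egfr (911 to 1056 against 418 to 475 CPM) and below them for Btc, and overlap them for the other 6 members.

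Tgfa, the ligand best known from epithelial autocrine growth, was at 116, 142, 149, 130 and 120 CPM in the cKO-labelled wells in the order given above. In the control-labelled wells D9, D10, D11 and D12 it was 158, 98.9, 92.1 and 115 CPM. D9 was the highest of all 9 wells and the other 3 control-labelled wells were below every cKO-labelled well. Over the fraction it had 1899 UMIs (133 CPM) and 1472 UMIs (121 CPM), a log2 ratio of 0.13 (0.03 to 0.23), which became 0.36 without D9. A Tgfa UMI was seen in 21.6% and 18.5% of cells at equal depth. Clusters ranged from 87.5 CPM in the cluster led by Hp and Serpina1b to 177 CPM in the Msln cluster of the cKO-labelled library, and from 74.1 CPM in the Dnah12 cluster to 166 CPM in the Msln cluster of the control-labelled library. In the 3 clusters that hold at least 100 cells of each library the log2 ratios were 0.05 to 0.25 and each interval included 0.

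Btc was lower in the cKO-labelled library. It stood at 84.2, 74.7, 91.5, 87.6 and 87.8 CPM in the cKO-labelled wells. The control-labelled wells gave 130, 164, 129 and 143 CPM. All 5 cKO-labelled wells were below all 4 control-labelled wells. Of the 7 members with at least 200 UMIs, 1 was lower in this way and 1, Egfr, was higher, where of 9318 genes 8.33% were lower, 7.61% were higher and 15.9% showed either, so such a gap is not rare in these libraries. Over the fraction Btc had 1210 UMIs (84.5 CPM) and 1728 UMIs (142 CPM), a log2 ratio of -0.75 (-0.86 to -0.64), and it was lower in 8 of 8 sublibraries. Cells with a Btc UMI made up 13.8% (12.4 to 15.2) and 20.6% (19.1 to 22.1) at equal depth, with wells at 12.8% to 15.4% and 19.5% to 22.1%.

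The log2 ratio of Btc was closer to 0 in each of the 3 clusters shared by the libraries than over the fraction. It was -0.39 (-0.61 to -0.17) in the Msln cluster, -0.59 (-0.98 to -0.22) in the Ltf cluster and -0.15 (-0.38 to 0.08) in the Muc6 cluster. The wells of the libraries overlapped in all 3 clusters. They gave 101 to 153 against 124 to 209 CPM in the Msln cluster and 82.2 to 202 against 179 to 253 CPM in the Ltf cluster. At an equal mix of clusters, which gives little weight to a cluster with few cells of either library, it was -0.40. Btc was highest in the Muc6 cluster of the cKO-labelled library (182 CPM) and in the Ltf and Muc6 clusters of the control-labelled library (206 and 203 CPM). The lowest level, 28.6 CPM (23.3 to 34.7), was that of the Hp cluster, which held 543 cKO-labelled cells and 3 control-labelled cells. The cluster led by Csf3 and Ptgs2, with 837 cKO-labelled and 35 control-labelled cells, was at 60.5 CPM.

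Areg, a ligand of EGFR alone, varied most over the biliary clusters of all members with enough counts. It had 296 UMIs (20.7 CPM) in the cKO-labelled and 287 UMIs (23.6 CPM) in the control-labelled biliary fraction, in 152 and 138 cells. The Muc6 cluster, with 388 and 337 cells, held 47.6% and 55.7% of these UMIs but 12.8% and 12.1% of all biliary UMIs. Its level there was 76.9 CPM (64.8 to 90.7) and 109 CPM (92.7 to 127). The Ltf cluster came next at 42.8 and 56.5 CPM, then the Msln cluster at 34.7 and 25.8 CPM, and no other biliary cluster of at least 50 cells passed 8.81 CPM. The 8 members had been left out of the genes used for clustering, yet Areg was among the 10 leading genes of the Muc6 cluster, beside Capn13 and Olfm4. Even there 10.3% and 10.9% of cells had an Areg UMI at equal depth, against 3.21% and 2.71% of the whole fraction. A few cells carried much of it: 23 and 36 biliary cells had at least 3 Areg UMIs and together held 44.3% and 59.9% of the counts, and 13 and 20 of them were in the Muc6 cluster.

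By well, Areg was 21.8, 17.9, 27.8, 16.5 and 20.9 CPM in the cKO-labelled wells. It was 8.19, 36.2, 35.1 and 22.2 CPM in the control-labelled wells D9 to D12. The control-labelled wells held both the lowest value and the 2 highest, and the groups overlapped. Within the Muc6 cluster the cKO-labelled wells lay between 71.4 and 90.8 CPM, whereas the control-labelled wells were 31.6 CPM (17.7 to 52.0) in D9, 206 CPM (163 to 257) in D10, 175 CPM (124 to 240.4) in D11 and 72.9 CPM (48.8 to 105) in D12. The spread of the control-labelled wells was wider than that between the libraries, whose log2 ratio over the fraction was -0.19 (-0.43 to 0.05). That ratio was -0.58 without D9 and 0.10 without D10. Its sign was opposite in 4 of 19 alternative settings, and Areg was higher in the cKO-labelled library in 3 sublibraries and lower in 5.

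**Figure D2:**
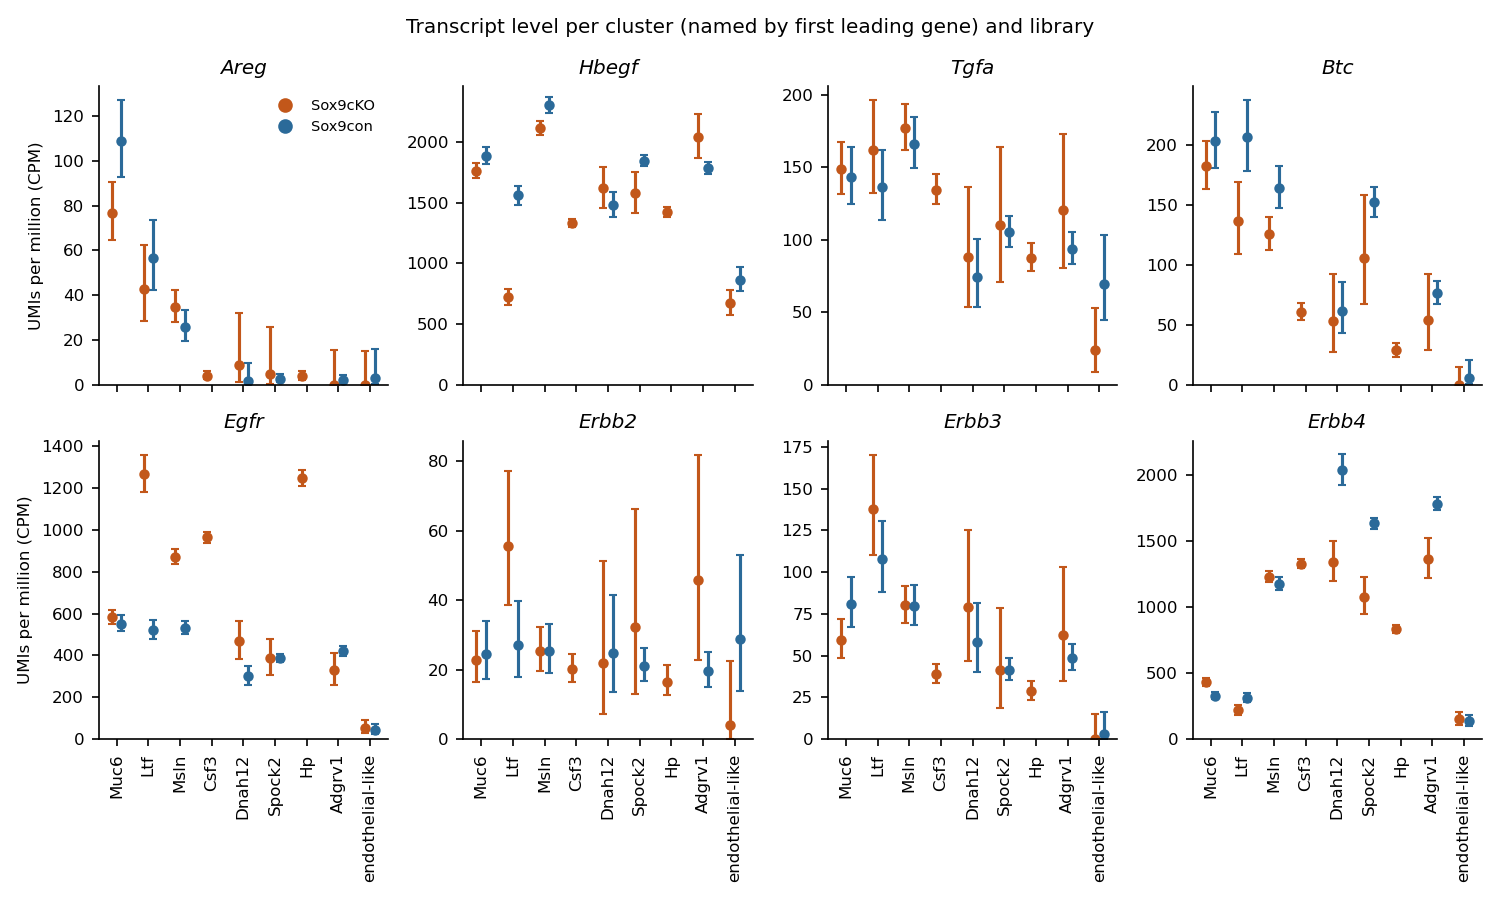
Level in CPM (linear axes from 0) per cluster of at least 50 cells of a library, clusters named by their first leading gene, with exact 95% Poisson intervals as bars and endothelial-like cells at the right. Areg is highest in the Muc6 cluster (76.9 and 109 CPM), Hbegf is present in every cluster, and Egfr is highest in the Ltf and Hp clusters of the cKO-labelled library (1268 and 1247 CPM).

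Ereg was close to absent from the biliary fraction. It had 7 UMIs in 7 cKO-labelled cells and 2 UMIs in 2 control-labelled cells, spread over 5 clusters with at most 1 UMI in a cell, which is too few for any comparison. A further 14 UMIs came from 1 cKO-labelled cell of an unnamed cluster of 15 cells led by Cacna1c and Ctnna3. That 1 cell moves the Ereg log2 ratio from 1.38 in the biliary fraction to 2.90 over all kept cells.

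Egfr, the receptor for all 5 ligands, was the member that differed most among the 7 with at least 200 UMIs. It stood at 922, 936, 1056, 911 and 947 CPM in the cKO-labelled wells. In the control-labelled wells it was 464, 475, 418 and 448 CPM. The lowest cKO-labelled well was well above the highest control-labelled well, and D9 did not stand apart. Over the fraction it had 13667 UMIs (954 CPM, 938 to 970) and 5541 UMIs (455 CPM, 443 to 467), which is 2.10-fold higher (2.03 to 2.16) or a log2 ratio of 1.07 (1.02 to 1.11). It was higher in 8 of 8 sublibraries, with log2 ratios of 0.93 to 1.34. Egfr was the only 1 of the 7 members tested that was at least 2-fold apart, and none was 2-fold lower, against 3.99% of 9318 genes apart, 2.19% higher and 1.8% lower. The median log2 ratio of those genes was -0.07, and 95% of them lay between -0.92 and 0.93.

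The difference showed in the share of cells with Egfr at equal depth. At equal depth 66.9% (65.0 to 68.8) of cKO-labelled and 48.4% (46.5 to 50.3) of control-labelled biliary cells had an Egfr UMI, and the wells gave 64.9% to 68.6% and 47.1% to 49.9%. At full depth the shares were 82.5% and 57.2%, and cells with at least 10 Egfr UMIs were 15.2% and 1.75% of the fraction. Both follow depth as well as level: Hbegf, which was lower in the cKO-labelled library in CPM, had 33.6% and 24.8% of cells with at least 10 UMIs. The highest count was 127 UMIs in a cKO-labelled cell of the Hp cluster, which is 0.93% of that library's Egfr counts. Deeper cells had a higher level of Egfr in both libraries, 1017 against 818 CPM above and below the median depth in the cKO-labelled and 486 against 385 CPM in the control-labelled library. A gene on the other strand of Egfr, Egfros, had 102 and 63 UMIs of its own, and whether counting used the strand is not given in the sources used here.

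The Egfr difference was uneven over the clusters. The Msln cluster gave 870 and 533 CPM and a log2 ratio of 0.71 (0.60 to 0.81), with wells at 778 to 944 against 440.1 to 612 CPM and no overlap. The Ltf cluster gave 1268 and 523 CPM and a log2 ratio of 1.28 (1.11 to 1.44), with wells at 979 to 1402 against 421 to 607 CPM, again without overlap, at 17 to 59 cells a well. The Muc6 cluster gave 582 and 552 CPM and a log2 ratio of 0.08 (-0.06 to 0.21), and the wells overlapped at 468 to 669 against 510.2 to 584 CPM. The interval in the Muc6 cluster does not overlap those of the other 2 clusters. The 2 clusters made up almost wholly of cKO-labelled cells were at 963 CPM (Csf3) and 1247 CPM (Hp). The 2 made up mostly of control-labelled cells were at 388 CPM (Spock2 and Ly6a, 1169 control-labelled cells) and 421 CPM (Adgrv1 and Ctnna2, 878 cells), and the 68 and 71 cKO-labelled cells in them were at 385 CPM (307 to 477) and 328 CPM (260.0 to 409). At an equal mix of clusters the log2 ratio of Egfr was 0.56, which is under 2-fold. That ratio gives little weight to the Csf3 and Hp clusters, which hold few control-labelled cells. A cluster held mostly by 1 library may reflect that library rather than a kind of cell, and the 2 cannot be told apart here.

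**Figure D3:**
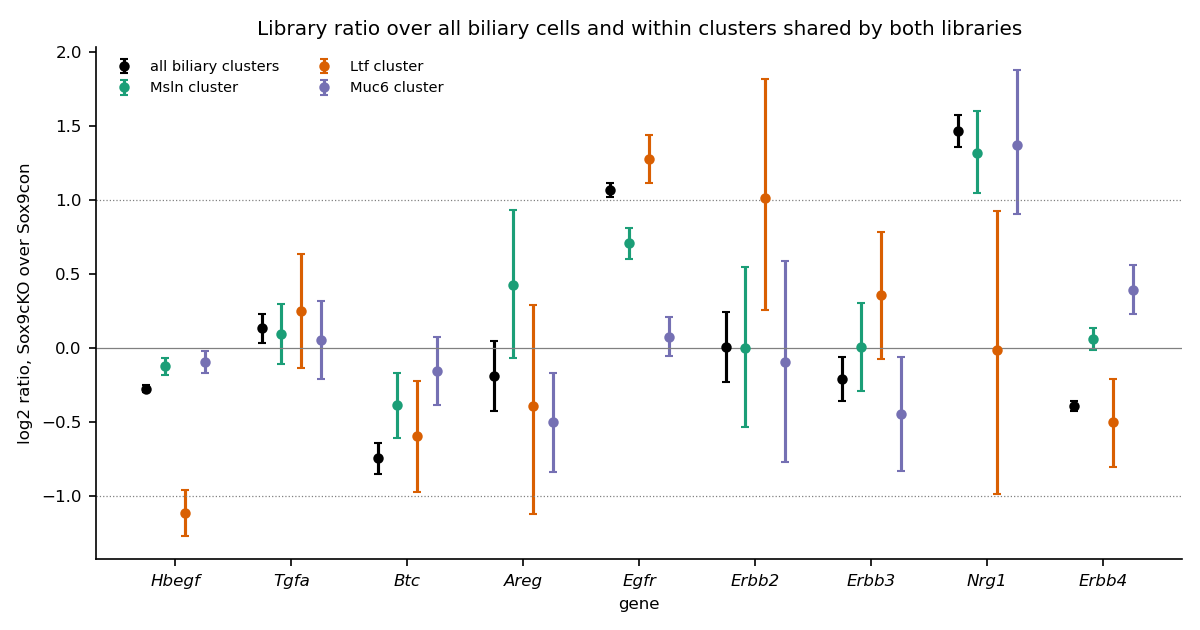
Log2 ratio of the cKO-labelled over the control-labelled library for 7 members, Nrg1 and Erbb4 in the whole biliary fraction and in the 3 clusters with at least 100 cells of each library, with exact 95% intervals as bars, a solid line at 0 and dotted lines at 2-fold. Egfr lies at 1.07 in the whole fraction but at 0.08 in the Muc6 cluster, and Hbegf falls to -1.12 in the Ltf cluster.

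Erbb2, the partner receptor without a ligand of its own, did not differ beyond counting error over the biliary fraction. It was 23.2, 20.2, 26.3, 23.9 and 21.3 CPM in the cKO-labelled wells. It was 30.4, 15.04, 13.1 and 27.2 CPM in the control-labelled wells, which held both the highest values and the lowest. The totals were 326 UMIs (22.8 CPM) and 276 UMIs (22.7 CPM), a log2 ratio of 0.01 (-0.23 to 0.24), higher in 4 sublibraries and lower in 4. Without D9 the ratio was 0.26, and without D10 it was -0.15. The Ltf cluster of the cKO-labelled library had the highest level, 55.5 CPM (38.7 to 77.2) from 35 UMIs, against 27.2 CPM from 26 UMIs in the same cluster of the control-labelled library, a log2 ratio of 1.01 (0.26 to 1.82) that is beyond counting error. Mien1 lies on the other strand of Erbb2 and had 103 and 192 UMIs.

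Erbb3, the neuregulin receptor, was 43.5, 51.0, 51.9, 61.9 and 52.6 CPM in the cKO-labelled wells. The control-labelled wells were at 63.4, 52.8, 60.3 and 66.4 CPM. The groups overlapped, with A11 the lowest and D12 the highest. The totals were 753 UMIs (52.6 CPM) and 742 UMIs (60.9 CPM), a log2 ratio of -0.21 (-0.36 to -0.06), which was 0.01 at an equal mix of clusters. Erbb3 was highest in the Ltf cluster, at 138 CPM (111 to 170.3) and 108 CPM (88.0 to 131), and lowest in the Hp cluster at 28.6 CPM. The share of cells with an Erbb3 UMI at equal depth was 9.39% and 10.1%.

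Variation over clusters was the rule for most genes. In the cKO-labelled library 7 of 7 members reached at least 2-fold more in their highest than in their lowest cluster, where 72.6% of genes did, and 3 (Areg, Btc and Erbb3) reached 4-fold, where 27.7% did. In the control-labelled library 4 of 7 members (Areg, Tgfa, Btc and Erbb3) reached 2-fold, where 49.3% of genes did, and Areg alone reached 4-fold, where 14.1% did. Over the 14 biliary clusters of a library with at least 50 cells, Areg had correlations of r = 0.77 with Btc, 0.70 with Tgfa and 0.66 with Erbb3, and Hbegf and Egfr had one of r = -0.53. Areg and Btc parted in the Spock2 cluster of the control-labelled library, at 2.46 and 152 CPM. These points share 2 libraries and their depth, so the values are a description. Over 16 such points, endothelial-like cells included, the genes most like each member were Zzef1, Capn13 and Dmbt1 for Areg (r = 0.94, 0.94 and 0.93), Tuba4a, Cldnd1 and Cobl for Hbegf (0.90, 0.88 and 0.88) and Zdhhc13, Fam135a and Arhgap44 for Tgfa (0.95, 0.94 and 0.93). For Btc they were Klf5, Mpzl3 and Anxa3 (0.98, 0.97 and 0.97), and for Egfr they were Cdk6, Garem1 and Lpin2 (0.95, 0.95 and 0.94). For Erbb2 they were Reps2, Ash2l and Nkain2 (0.83, 0.82 and 0.80), and for Erbb3 they were Otud7b, Tmprss2 and Shroom3 (0.96, 0.96 and 0.95). These are the highest values among all genes compared, and the contrast of biliary with endothelial-like cells enters them.

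In endothelial-like cells, where all 12 endothelial markers were detected, Hbegf was the only member above the level of biliary markers in both libraries. It had 167 UMIs (671 CPM, 573 to 781) in 82 cKO-labelled and 300 UMIs (866 CPM, 771 to 969) in 114 control-labelled cells, and the biliary fraction was 2.31-fold (1.98 to 2.70) and 2.16-fold (1.93 to 2.43) higher. This is 43.4% and 46.2% of the biliary level, whereas the 12 biliary markers stood in these cells at 5.67% to 23.8% and 5.57% to 14.97% of theirs. Egfr had 13 UMIs (52.3 CPM) and 15 UMIs (43.3 CPM), which is 5.48% and 9.52% of the biliary level. These shares are just under that marker range in the first library and inside it in the second. The UMIs came from 8 cells of each library, with at most 5 and 6 in a cell, and whether they are background was not tested. Tgfa had 6 UMIs (24.1 CPM, 8.85 to 52.5) and 24 UMIs (69.3 CPM, 44.4 to 103), and the latter is 57.3% of the biliary level. Areg, Btc and Erbb3 had no UMI in the cKO-labelled and 1, 2 and 1 UMIs in the control-labelled endothelial-like cells, and Ereg had none in either. Against 3 UMIs, taken as the limit for a count of 0 and not as an exact interval, the cKO-labelled biliary fraction was at least 7.0-fold higher for Btc, at least 4.36-fold for Erbb3 and at least 1.71-fold for Areg. Erbb2 had 1 UMI and 10 UMIs (28.9 CPM, 13.8 to 53.1), next to 22.7 CPM in the biliary fraction of the latter library. In the cKO-labelled library 33.9% of genes, and in the control-labelled library 31.5%, were at least 2-fold higher in the biliary fraction by the plain ratio. The plain ratios of Areg, Btc and Erbb3 rest on 0 to 2 endothelial UMIs and that of Erbb2 in the cKO-labelled library on 1 UMI (5.66-fold, 1.01 to 224), so the members are not counted against these shares.

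**Figure D4:**
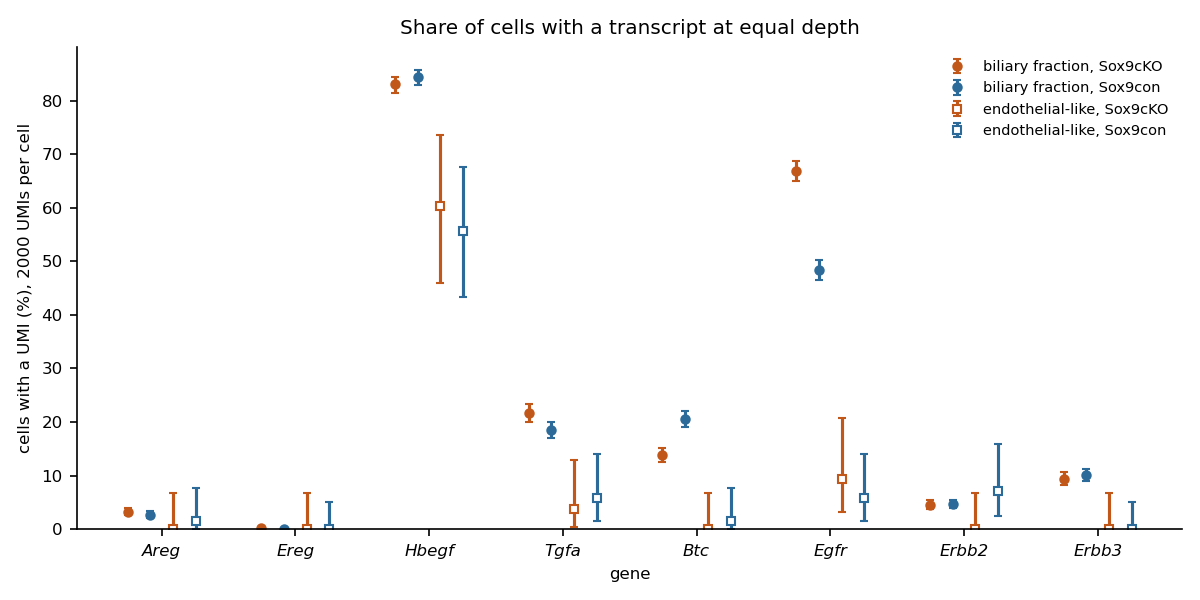
Share of cells with at least 1 UMI of each member, every cell thinned to 2000 UMIs and shallower cells left out, with exact 95% binomial intervals as bars, filled circles for the biliary fraction and open squares for endothelial-like cells. Hbegf is in most cells of both classes, and Egfr is in 66.9% and 48.4% of biliary cells but 9.43% and 5.71% of endothelial-like cells.

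At equal depth the share of endothelial-like cells with a Hbegf UMI was 60.4% (53 cKO-labelled cells) and 55.7% (70 control-labelled cells). None of those 53 cells had an Areg, Btc or Erbb3 UMI. With the limit for a count of 0 taken as 3 counts, this allows up to 5.66% of cells with a UMI, and it sets no limit on cells that express the gene. A Tgfa UMI was seen in 3.77% and 5.71% of them. Median depth at full depth was 2351.5 and 2327.5 UMIs in endothelial-like cells, below that of the biliary fraction. By well, Hbegf in these cells ran from 499 to 886 CPM and from 637 to 1257 CPM, and the groups overlapped. The unnamed cluster led by Gnat3, Fyb and Rgs13, with 17 and 11 cells, had little Egfr, 7 UMIs (69.5 CPM, 27.9 to 143) and 1 UMI, next to Erbb3 at 79.4 CPM (34.3 to 157) and 118 CPM (32.2 to 303) and Hbegf at 367 and 473 CPM.

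Ligand and receptor transcripts were often found in the same biliary cell. At equal depth at least 1 of the 5 ligands had a UMI in 88.5% of the cKO-labelled cells and 89.8% of the others, and at least 1 of the 3 receptors had a UMI in 71.7% and 55.3%. Both were seen in 63.6% (61.7 to 65.5) and 50.1% (48.2 to 51.9). Whether this is more than the separate shares would give if independent was not tested, so it describes overlap only. The share with Egfr was alike in cells with and without Hbegf, with overlapping intervals: it was 66.9% (64.8 to 69.0) in cKO-labelled cells with a Hbegf UMI and 67.0% (62.2 to 71.5) in those without, and 48.9% (46.9 to 50.9) and 45.7% (40.9 to 50.5) in control-labelled cells. Egfr was seen in 72.1% (68.1 to 75.9) of cKO-labelled cells with a Tgfa UMI and 65.5% (63.3 to 67.6) of those without, and in 54.1% (49.7 to 58.5) and 47.1% (45.0 to 49.1) of control-labelled cells. In Areg-positive cells Egfr was at 65.8% of 79 and 55.3% of 76 cells, with intervals that overlapped those of the cells without Areg.

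Nrg1 and Erbb4 belong to the same receptor system and are not members. Nrg1, which encodes neuregulin 1, a ligand of ERBB3 and ERBB4, was at 207 CPM (2966 UMIs) in the cKO-labelled and 74.8 CPM (911 UMIs) in the control-labelled biliary fraction, a log2 ratio of 1.47 (1.36 to 1.58). All 5 cKO-labelled wells, at 186 to 237 CPM, were above the 4 control-labelled wells, at 56.6 to 85.4 CPM. The Hp cluster alone held 58.3% of the cKO-labelled Nrg1 counts, and at an equal mix of clusters the log2 ratio was 0.82. Over all kept cells it was 1.20. It was 1.32 (1.05 to 1.60) in the Msln cluster, 1.37 (0.91 to 1.88) in the Muc6 cluster and -0.01 (-0.99 to 0.92) in the Ltf cluster. The Msln wells, at 125 to 210 against 41.7 to 87.6 CPM, did not overlap. Those of the Muc6 cluster did, at 41.1 to 187 against 27.3 to 47.6 CPM, and B1 gave 60 of its 156 cKO-labelled UMIs. Single cells held up to 82 and 26 Nrg1 UMIs. Erbb4 was at 1021 and 1338 CPM, a log2 ratio of -0.39 (-0.43 to -0.36), lower in all 5 cKO-labelled wells, and -0.07 at an equal mix of clusters. Its direction differed between clusters, with log2 ratios of 0.06 (-0.01 to 0.14) in the Msln cluster, -0.50 (-0.80 to -0.21) in the Ltf cluster and 0.39 (0.23 to 0.56) in the Muc6 cluster. The other 5 ligand genes of the family (Egf, Epgn, Nrg2, Nrg3 and Nrg4) had at most 17 UMIs in a library.

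Beside Nrg1 and Erbb4, which are given above and were listed apart, 5 lists of pathway genes were chosen with earlier results known. None of these 5 held a gene with at least 200 UMIs that was at least 2-fold apart, where 3.99% of 9318 genes were. Of the genes that shed the ligands or hold back shedding, 6 of 8 had at least 200 UMIs, with a median log2 ratio of 0.12, from 0.34 for the sheddase gene Adam10 to -0.93 for Timp3, which encodes a metalloprotease inhibitor. Timp3 was lower in all 5 cKO-labelled wells (85.5 to 103 against 160 to 189 CPM), but it was at 1841 and 2291 CPM in endothelial-like cells, and the part of endothelial RNA in its biliary level was not tested. The summed endothelial markers in the biliary fraction were at 57.4 and 57.9 CPM. Adaptors and the RAS to ERK relay, 20 of 21 tested, had a median of -0.05, from 0.87 for the scaffold gene Ksr1 to -0.51 for the kinase gene Map2k2. Receptor turnover and feedback inhibitors, 15 of 17 tested, had a median of 0.12, from 0.69 for Spry4, a feedback inhibitor, to -0.48 for Socs5.

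ERK response genes, 16 of 19 tested, had a median of -0.29, from 0.85 for the ERK phosphatase gene Dusp4 to -0.99 for Hmga2, which had 75 and 127 UMIs. The list holds 3 members (Areg, Ereg and Hbegf), and without them 14 of 16 genes were tested, with a median of -0.31. Of the 16 genes tested with the members, 2 were higher and 4 lower in all cKO-labelled wells than in all control-labelled wells, next to the 7.61% and 8.33% of all genes. Etv4, named after its values were seen, had 15 and 40 UMIs and so was not tested, and its log2 ratio was -1.61 (-2.61 to -0.76). The 20 genes known to rise during tissue dissociation, which include ERK-responsive early genes, had a median of -0.31, from 0.35 for Dusp1 to -0.92 for Egr2, and summed to 5299 to 6942 CPM in the cKO-labelled and 6712 to 7521 CPM in the control-labelled wells. Hbegf is itself inducible in this way, and the part of the dissociation response in the levels of Hbegf and Areg was not tested. The median of all genes, -0.07, became 0.08 with DESeq2 size factors, and every log2 ratio here moves up by the same amount under that scaling.

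**Figure D5:**
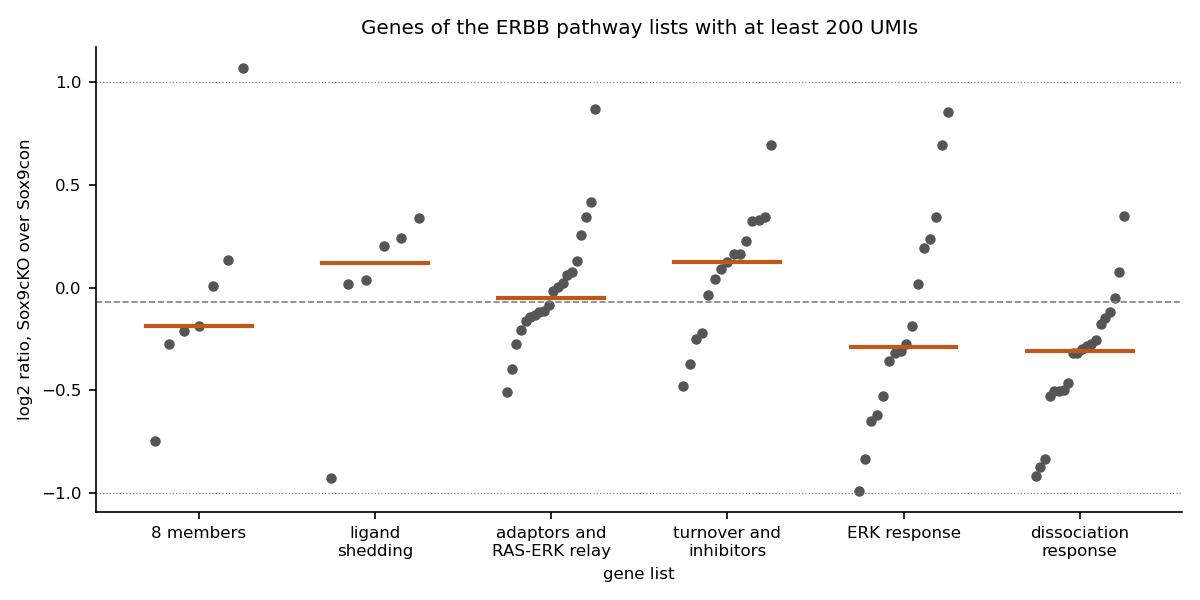
Log2 ratio of the cKO-labelled over the control-labelled library for each gene with at least 200 UMIs in the members and in 5 pathway lists, with the list median as a bar, the median of all genes as a dashed line at -0.07 and dotted lines at 2-fold. Egfr, at 1.07, is the only point drawn beyond 2-fold, and Nrg1, at 1.47, is not drawn.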

How the data were processed

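Fixed mouse biliary cells were barcoded by split-pool barcoding with random hexamer and oligo(dT) primers, per the labels' protocols. The deposited values are UMI counts, whole numbers of transcripts for each cell and gene, on a genome called mg39 per the file headers and GRCm39 per the submitters' processing notes. The aligner, the annotation and the choice of cells are not given in the sources used here. Everything else was computed from those counts.

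The cell filter required 500 genes, 1000 UMIs and a mitochondrial share of no more than 15%. Scrublet marked only 12 of 6220 cells (0.193%), which were removed, and how many doublets it missed was not tested. With the 5% of cells with the highest doublet scores also left out, the log2 ratio was 1.06 for Egfr and -0.73 for Btc. The libraries were clustered together in scanpy 1.11.5 (2000 variable genes without the 8 members and Sox9, 30 components, 15 neighbours, Leiden resolution 0.5). Clusters were named from marker lists where at least 3 markers reached 50 CPM, and stayed unnamed where all 10 leading genes were at least 6 log2 units above other cells and held no marker of the class. Counts were summed per library, well or cluster. An equal mix of clusters means a Mantel-Haenszel ratio over clusters, in which a cluster with few cells of either library weighs little. Levels have exact 95% Poisson intervals, shares Clopper-Pearson intervals and ratios exact conditional binomial intervals, and a log2 ratio adds 0.5 counts. A gene was tested if the libraries together gave it 200 UMIs or more. Equal depth means each cell thinned to 2000 UMIs, with 139 and 566 shallower biliary cells left out. Wells were treated as technical parts of their library, never as replicates, since the labels say nothing about them.

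The members and gene lists were chosen with earlier results of these data known. The 8 members are named whatever their value, as are Sox9, list genes at least 2-fold apart, the highest and lowest gene of each list, and the 3 genes most like each member by Pearson correlation of log2 CPM + 10. Erbb4, Nrg1 and genes overlapping a member were added. The scripts were tested on simulated data. Alternatives used edgeR 4.0.16 (TMM), DESeq2 1.42.0 (size factors), other filters and each well left out.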

Additional observations from a re-analysis of the deposited data

How the results depend on the processing

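No log2 ratio of a member with at least 200 UMIs that lay outside its counting error changed sign, apart from Erbb3 at an equal mix of clusters (0.01). The ratio of Egfr ran from 0.56 (equal mix of clusters) to 1.22 (DESeq2 size factors), Btc from -0.80 to -0.40, Hbegf from -0.45 to -0.08, Tgfa from 0.05 to 0.37 and Areg from -0.58 to 0.18. Members at least 2-fold higher numbered 0 at an equal mix of clusters and 2 with no gene minimum (Ereg added), and 1 was lower at a 1.5-fold threshold. Over all genes 204 were 2-fold higher. That count was 109 in thinned cells, 94 in cells of 2000 to 5000 UMIs (added after the data were seen), 86 at an equal mix, 3968 with no gene minimum and 505 at 1.5-fold. Of all genes 168 were 2-fold lower, and this became 93 with DESeq2 factors, 107 in thinned cells, 109 in cells of 2000 to 5000 UMIs, 272 at a minimum of 100 UMIs, 4692 with none, 974 at 1.5-fold and 387 without well D9. Pathway genes apart numbered 1 (Nrg1) and became 3 with DESeq2 factors, 2 over all kept cells, 2 under the stricter filter, 2 over all deposited cells, 2 in thinned cells, 2 in cells of 2000 to 5000 UMIs, 0 at an equal mix, 4 with no minimum and 12 at 1.5-fold. Leaving out a well gave 1 to 3, with 3 without B2 and 2 without B3, D9 or D10. At Leiden resolution 1.0 the matching cluster held 55.4% of cKO-labelled Areg UMIs. No paired analysis was possible because the labels give no replicate numbers. With 1 library per genotype, counts limit Erbb2, Areg and above all Ereg and the endothelial-like cells.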
